A study of Homo sapiens with 6 samples.

Results

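The SLC25 genes encode the mitochondrial carriers, a family of nuclear-encoded membrane proteins, nearly all of the mitochondrial inner membrane, that pass nucleotides, phosphate, carboxylates, amino acids, vitamins and iron between the matrix and the cytosol. Each carrier binds its substrate on one side of the membrane, closes around it and opens on the other side, and most work as exchangers. In proliferating cancer cells the family is known for exporting ATP and citrate, for moving aspartate and glutamate between compartments, and for supplying the matrix with folate and amino acids. The members were the rows whose symbol is SLC25A followed by a number and nothing else, which took 45 of the 23273 rows of each deposited file. The rule reads the symbol alone.

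The cells were L3.6pl, an established human pancreatic cancer line, kept in serum-containing medium and not treated with a drug. The tested cells are named ARID1Ako in the sample titles and carry the genotype ARID1A-deficient, with 3 libraries, and they were set against 3 libraries of parental cells with the genotype WT. The protein ARID1A belongs to SWI/SNF, a complex that moves nucleosomes on chromatin. The labels do not say how the gene was disrupted or whether the ARID1Ako cells are 1 clone, so an effect of ARID1A loss and other differences between the cells cannot be told apart. The RNA came from triplicate samples, and nothing says that these were separate cultures, so the p-values measure only the spread between the libraries.

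Each library gives 1 level per gene in FPKM, a fragment count scaled by transcript length and by library size, which allows levels of different genes to be set side by side. The values summed to between 620223 and 725307 FPKM in the ARID1Ako libraries and between 576084 and 792187 FPKM in the parental libraries, and the fragment total of a library is unknown here. ARID1A measured 3.55, 3.28 and 3.61 FPKM in the ARID1Ako libraries, against 11.8, 6.76 and 9.42 FPKM in the parental libraries. The slope of log2 levels on log2 transcript length, relative to the mean over libraries, lay between -0.02187 and -0.0002976 in the ARID1Ako libraries and was 0.0521, -0.04847 and 0.02438 in parental replicates 1, 2 and 3, so the parental libraries differed more among themselves. The epithelial genes KRT8, KRT18, KRT19 and EPCAM lay between 187 and 1323 FPKM in ARID1Ako libraries and between 234 and 2705 FPKM in parental libraries, and CDH1 at 3.37 to 3.92 FPKM in ARID1Ako libraries and 4.21 to 6.01 FPKM in parental libraries. Of 9 genes of other cell types, DCN and LUM of fibroblasts were at 0 in every library and PTPRC and CD3E of leukocytes, VWF of endothelium, ALB of liver and CKM of muscle did not pass 0.0627 FPKM in ARID1Ako libraries or 0.0441 FPKM in parental libraries. The others, CD68 and PECAM1, measured 5.75 to 7.31 and 1.11 to 1.39 FPKM in ARID1Ako libraries, against 8.41 to 9.68 and 1.91 to 2.18 FPKM in parental libraries. KRT8, KRT19, EPCAM, CDH1, CD68 and PECAM1 were lower in every ARID1Ako library than in every parental one, KRT18 overlapped, and their part in the results was not tested.

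The carriers differed widely in level. Over the 6 libraries 5 members averaged about 100 FPKM or more, 16 lay between 10 and 100 FPKM, 16 between 1 and 10 FPKM and 7 below 1 FPKM, and 1 was listed at 0 throughout. The highest was SLC25A5, the ADP/ATP carrier ANT2 of dividing cells, at 772, 851 and 818 FPKM in the ARID1Ako libraries and 697, 906 and 768 FPKM in the parental libraries. SLC25A3, the carrier that brings phosphate in for ATP synthesis, measured 455, 483 and 463 FPKM in ARID1Ako cells and 392, 523 and 442 FPKM in parental cells. SLC25A39, which is needed for glutathione import into the matrix, had 246, 329 and 304 FPKM in ARID1Ako cells and 259, 397 and 277 FPKM in parental cells.

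SLC25A1, the citrate exporter that feeds fatty acid and sterol synthesis, measured 119.6, 157 and 147 FPKM in ARID1Ako cells and 137, 210.3 and 144 FPKM in parental cells. SLC25A10, the dicarboxylate carrier for malate and succinate, had 79.5, 113 and 99.0 FPKM in ARID1Ako cells and 85.3, 134 and 89.9 FPKM in parental cells. For all 5 of these carriers the parental values enclosed or overlapped the ARID1Ako values, and parental replicate 2 gave the highest value of all 6 libraries. In order of mean level, SLC25A5 lay above every value of SLC25A3, and the ranges of SLC25A3 and SLC25A39 met. SLC25A39 lay above every value of SLC25A1, while SLC25A1 and SLC25A10 overlapped. These 5 genes made up 80.0% to 81.3% of the family's summed FPKM in ARID1Ako libraries and 79.8% to 83.3% in parental libraries. The whole family held 0.328% to 0.337% of a library's summed FPKM in ARID1Ako cells and 0.329% to 0.342% in parental cells, so the groups overlapped. The ADP/ATP carrier gene SLC25A6 was listed at 0 in every library, which can be a failed estimate. The order of levels and these percentages may therefore leave out its reads. In a bulk library a changed number of cells of a kind and a changed amount of RNA per cell cannot be told apart.

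**Figure D1:**
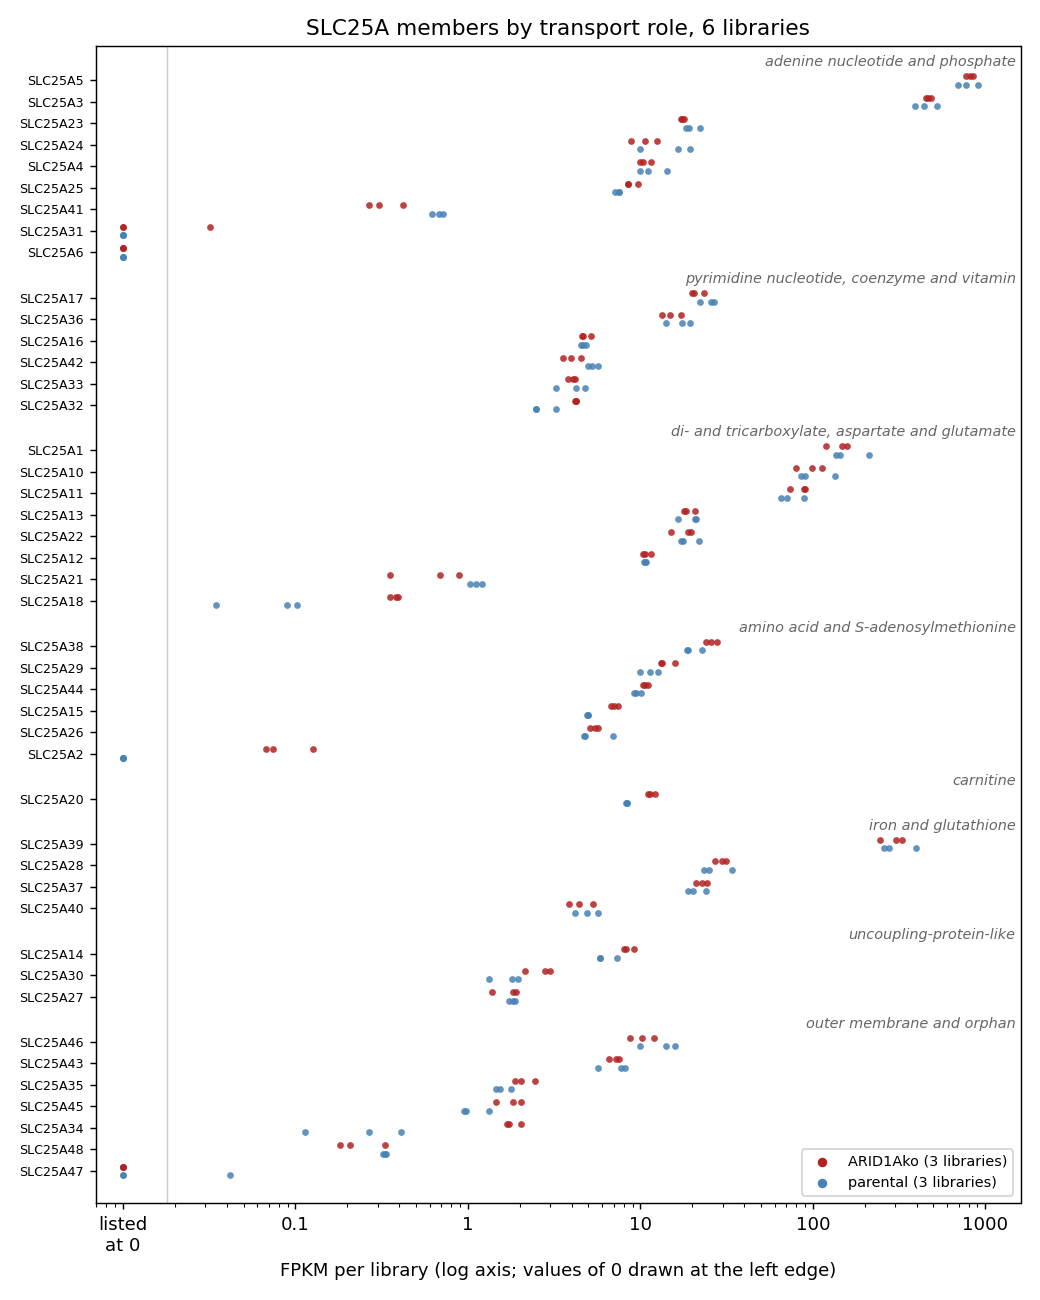
Levels of SLC25A members in FPKM on a log axis, grouped by transport role, with ARID1Ako libraries (red) drawn above parental libraries (blue) for each gene and 1 point per library. SLC25A5, at 697 to 906 FPKM, lies above all other members, and SLC25A34 shows a wide gap, at 1.69 to 2.03 FPKM in ARID1Ako libraries and 0.114 to 0.408 FPKM in parental libraries.

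Between the cells, 4 carriers were higher and 1 was lower in ARID1Ako cells. Those that rose were SLC25A34, an orphan carrier, SLC25A32, which carries folate and FAD, SLC25A15, the ornithine carrier of the urea cycle, and SLC25A20, the carnitine-acylcarnitine carrier of fatty acid oxidation. The one that fell was SLC25A41, a relative of the ATP-magnesium/phosphate carriers. The test was limma on log2(FPKM + 1) over every gene that averaged 0.5 FPKM or more, with Benjamini-Hochberg adjustment over 12826 genes, and 39 members were high enough to enter it. The 5 called members are 12.8% of the 39, against 15.9% of all genes tested, so the share is near the background. Among the 5, SLC25A34 and SLC25A41 each reached the minimum of 0.5 FPKM only through the group where the gene was higher. By direction, 7.82% of all tested genes were higher and 8.11% lower. The groups did not overlap for 16 tested members, 12 higher and 4 lower, which is 41% of them, against 35.3% of all tested genes, with 16.7% higher and 18.6% lower. Without adjustment, p was under 0.05 for 35.9% of tested members, against 29.5% of all tested genes. The median log2 fold change over tested members was 0.02, with 22 above 0 and 17 below, against a median of -0.01 over all tested genes. A change of at least 1 on the log2 scale was met by 1 member, SLC25A34.

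**Figure D2:**
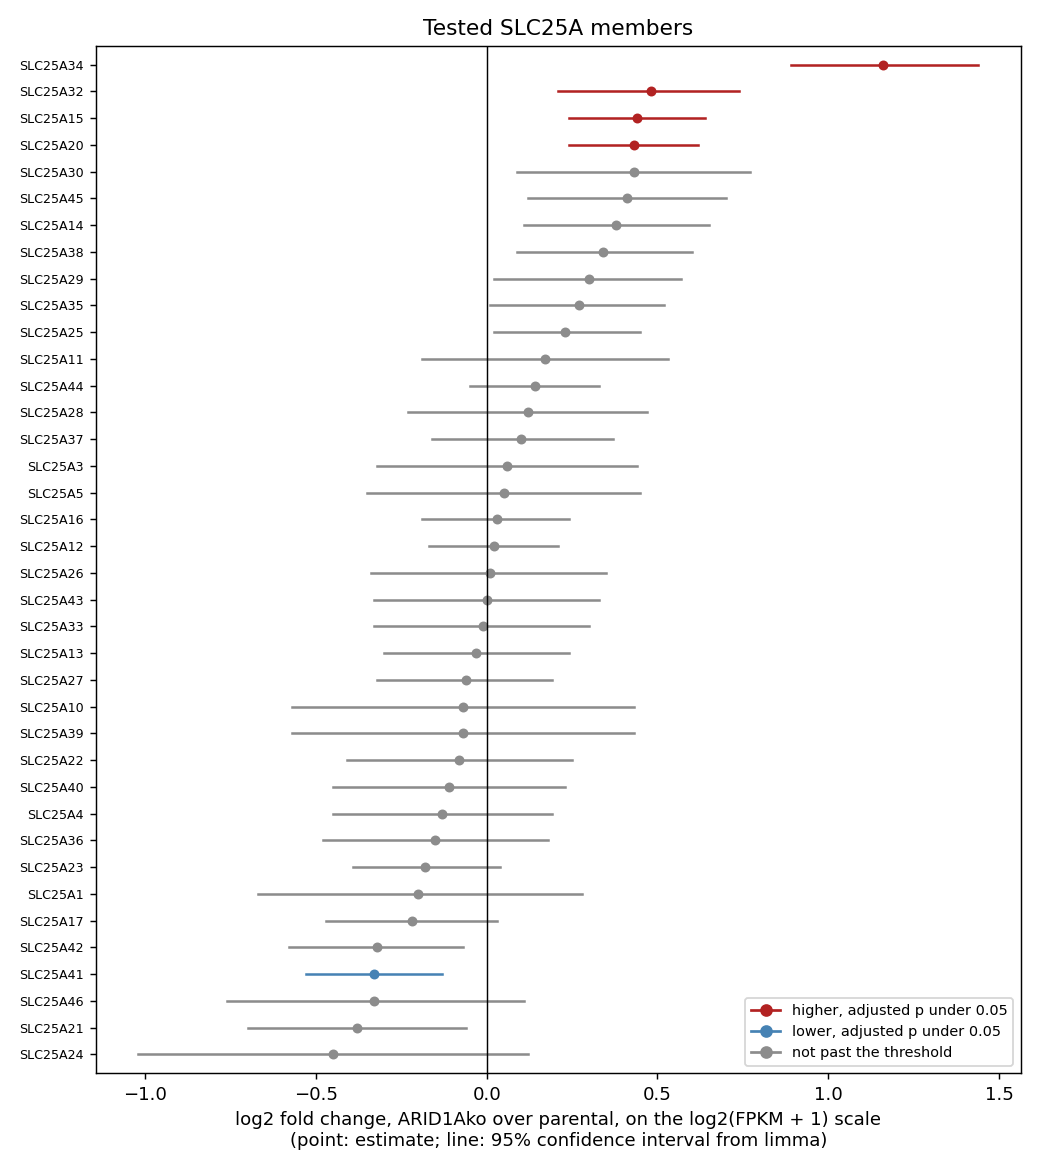
Log2 fold change of tested members, ARID1Ako over parental, on the log2(FPKM + 1) scale, with the 95% confidence interval from limma. SLC25A34 stands at 1.16 and all other members drawn lie between -0.45 and 0.48.

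SLC25A34 measured 1.74, 1.69 and 2.03 FPKM in the ARID1Ako libraries, against 0.114, 0.408 and 0.268 FPKM in the parental libraries. Every ARID1Ako value was over 4 times the highest parental one. The means were 1.82 ± 0.186 FPKM in ARID1Ako cells and 0.264 ± 0.147 FPKM in parental cells (SD, n = 3 each), a ratio of 6.91 that is imprecise because the parental values are so low. SLC25A34 entered the test through its ARID1Ako values, since its parental mean is under the minimum of 0.5 FPKM. The log2 fold change was 1.16 (SE 0.12, limma adjusted p = 9.70e-04), and 2.48 with a pseudocount of 0.1 in place of 1. It stayed past the threshold without each single library (highest adjusted p = 0.00838). The 40 nearest tested genes on chromosome 1 had a median log2 fold change of -0.24, so the gene rose among neighbours that were on balance lower. The antisense genes SLC25A34-AS1 and AL450998.2 overlap SLC25A34 in the GENCODE annotation, and the library kit does not keep strand, so their reads and those of SLC25A34 cannot be told apart.

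SLC25A32 had 4.21, 4.21 and 4.16 FPKM in the ARID1Ako libraries, against 3.26, 2.49 and 2.49 FPKM in the parental libraries. The ARID1Ako values were close together and all lay above the parental ones. The ratio of means was 1.53 and the log2 fold change 0.48 (SE 0.11, limma adjusted p = 0.0293). Its 40 tested neighbours on chromosome 8 had a median of -0.23, and the gene DCAF13 overlaps it on the other strand. Since the library kit does not keep strand, reads of DCAF13 and SLC25A32 from the overlap cannot be told apart. The call ended without ARID1Ako replicate 1, 2 or 3 (limma adjusted p = 0.0910, 0.105 and 0.112) and without parental replicate 3 (adjusted p = 0.131).

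SLC25A15 measured 7.01, 7.43 and 6.78 FPKM in the ARID1Ako libraries, against 4.97, 4.98 and 4.92 FPKM in the parental libraries. The parental values lay close together and the groups were apart. The ratio of means was 1.43 and the log2 fold change 0.44 (SE 0.08, limma adjusted p = 0.0145). Its 40 tested neighbours on chromosome 13 were also on balance higher, with a median of 0.24. GENCODE lists 5 pseudogenes of SLC25A15, none with a row of its own in the files, and reads of near-identical copies could be shared. The call ended without ARID1Ako replicate 1, 2 or 3 (limma adjusted p = 0.0521, 0.0771 and 0.0600) and without parental replicate 3 (adjusted p = 0.0772).

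SLC25A20 had 11.3, 12.2 and 11.1 FPKM in the ARID1Ako libraries, against 8.22, 8.32 and 8.39 FPKM in the parental libraries. Here too the parental values lay close together and below every ARID1Ako value. The ratio of means was 1.39 and the log2 fold change 0.43 (SE 0.08, limma adjusted p = 0.0122), with a median of -0.06 for its 40 neighbours on chromosome 3. The call ended without ARID1Ako replicate 2 or 3 (limma adjusted p = 0.0689 and 0.0532) and without parental replicate 3 (adjusted p = 0.0628).

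SLC25A41 measured 0.419, 0.266 and 0.305 FPKM in the ARID1Ako libraries, against 0.680, 0.620 and 0.713 FPKM in the parental libraries. All 3 ARID1Ako values were lower, and below the minimum of 0.5 FPKM for testing. The gene entered the test only through its parental values, which brought its mean over the 6 libraries to 0.501 FPKM. The ratio of means was 0.492 and the log2 fold change -0.33 (SE 0.09, limma adjusted p = 0.0435). Its 40 tested neighbours on chromosome 19, where SLC25A23 lies next to it, had a median of 0.08. The call ended without ARID1Ako replicate 1, 2 or 3 (limma adjusted p = 0.0650, 0.156 and 0.148), without parental replicate 1 or 3 (adjusted p = 0.101 and 0.163) and with a pseudocount of 0.1 (adjusted p = 0.0604). Of the 5 calls, that of SLC25A34 alone therefore held without every single library.

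**Figure D3:**
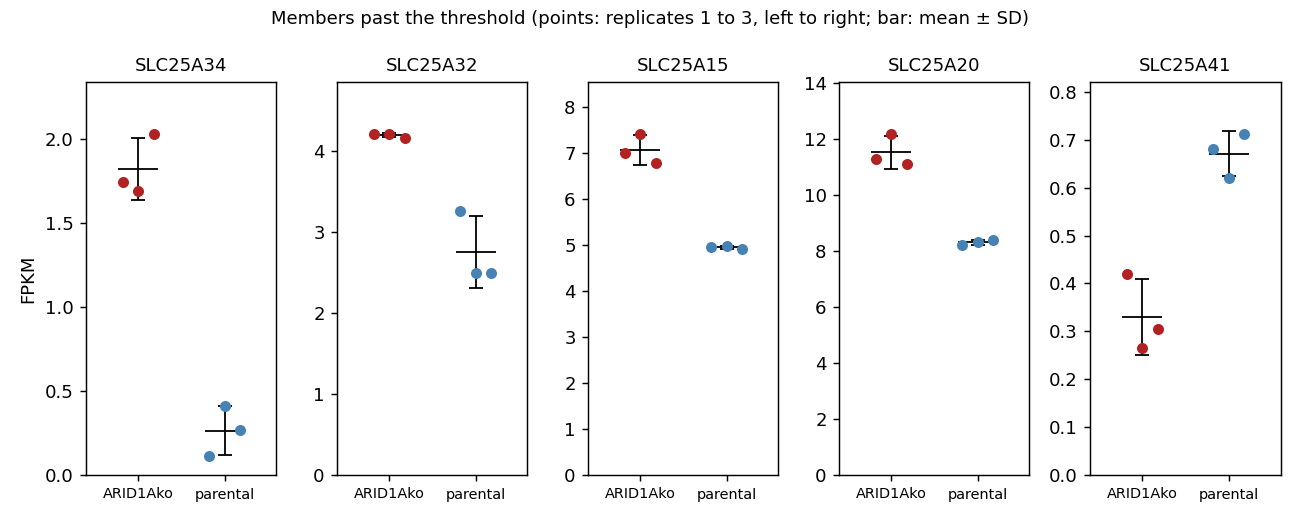
FPKM in each library for the 5 members past the threshold, ARID1Ako left and parental right, with points for replicates 1 to 3 and bars for the mean ± SD (n = 3 each). The groups do not overlap in any panel, and SLC25A34 has the widest gap, with means of 1.82 and 0.264 FPKM.

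The upstream sequences of 3 of the 5 called members are shown so that the start regions of genes that rose together can be compared. They were taken from RefSeq promoters on GRCh38.p14, a table that matched 37 of the 45 members. They run 250 bases 5′ to 3′ up to the base before the annotated start. No promoter was found for SLC25A41. SLC25A32, which also rose, was left out, so the 3 sequences do not cover every gene that rose. The levels themselves came from the earlier build GRCh37. SLC25A34 is at chr1:15736008-15736257 on the plus strand, SLC25A20 at chr3:48898883-48899132 on the minus strand, and SLC25A15 at chr13:40789361-40789610 on the plus strand. Capitals mark matches, on either strand, to the motifs named after the sequences.
SLC25A34: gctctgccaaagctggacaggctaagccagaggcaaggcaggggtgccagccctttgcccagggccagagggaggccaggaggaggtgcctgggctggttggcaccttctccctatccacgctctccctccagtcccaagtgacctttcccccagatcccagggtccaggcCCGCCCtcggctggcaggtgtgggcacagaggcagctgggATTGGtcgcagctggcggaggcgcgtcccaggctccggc
SLC25A20: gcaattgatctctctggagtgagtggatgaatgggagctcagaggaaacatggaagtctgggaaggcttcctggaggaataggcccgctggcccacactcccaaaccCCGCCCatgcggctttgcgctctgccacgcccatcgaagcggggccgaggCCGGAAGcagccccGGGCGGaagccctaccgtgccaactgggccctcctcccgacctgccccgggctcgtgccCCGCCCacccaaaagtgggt
SLC25A15: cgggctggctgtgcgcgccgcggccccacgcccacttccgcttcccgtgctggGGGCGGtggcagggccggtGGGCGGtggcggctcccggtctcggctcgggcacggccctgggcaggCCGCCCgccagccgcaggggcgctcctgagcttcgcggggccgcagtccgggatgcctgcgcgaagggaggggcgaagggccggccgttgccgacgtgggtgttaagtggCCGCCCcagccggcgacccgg
The motifs searched were the GC box GGGCGG, the CCAAT box spelled as its name, the TATA motif TATAAA, the E-box CACGTG, the ETS core CCGGAAG, the AP-1 site TGANTCA, the cyclic AMP element TGACGTCA, the NRF1 palindrome and the DR1 direct repeat, none of which overlapped another in these windows. GC boxes were present in all 3 sequences, with 1 match in SLC25A34, 3 in SLC25A20 and 4 in SLC25A15, and 42.3% of 27305 promoter windows of this length hold at least 1. SLC25A34 also held 1 CCAAT box (33.0% of windows), and SLC25A20 held 1 ETS core (8.82% of windows). The remaining motifs were not among these letters. SLC25A15 had 35 CG dinucleotides, SLC25A20 had 16 and SLC25A34 had 8, against a median of 11 over all windows. As many or fewer were held by 95.3% of windows for SLC25A15, 61.2% for SLC25A20 and 46.2% for SLC25A34. A link between CG count and change in level was not tested.

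Among the adenine nucleotide and phosphate carriers, 7 of 9 members were tested, 0 rose and 1 fell in the limma test, SLC25A41. Without adjustment, 1 was higher and 1 lower at p under 0.05. SLC25A5 had a log2 fold change of 0.05, with a 95% confidence interval from -0.35 to 0.45, and SLC25A3 one of 0.06, from -0.32 to 0.44, so these libraries leave room for a change of either sign. GENCODE lists 9 pseudogenes of SLC25A5 and 2 of SLC25A3, so their levels may share reads with copies. SLC25A4, the ADP/ATP carrier ANT1 of heart and muscle, was far below SLC25A5, at 10.6 ± 0.795 FPKM in ARID1Ako cells and 11.8 ± 2.17 FPKM in parental cells (SD, n = 3 each). SLC25A6, the ADP/ATP carrier ANT3, was listed at 0 in every library. It is annotated at 2 places, on chromosomes X and Y, and an exact 0 in such tables can be a failed estimate. SLC25A31, the ADP/ATP carrier of the testis, was listed at 0 in every library except ARID1Ako replicate 1, where it had 0.0319 FPKM.

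None of the calcium-regulated ATP-magnesium/phosphate carriers passed the test. SLC25A23 had 17.2, 17.8 and 17.5 FPKM in ARID1Ako cells and 22.3, 18.5 and 19.2 FPKM in parental cells, with no overlap (adjusted p = 0.253). SLC25A24 had 12.4, 8.84 and 10.7 FPKM in ARID1Ako cells and 19.5, 9.99 and 16.6 FPKM in parental cells, overlapping through parental replicate 2. Its log2 fold change was -0.45 (limma adjusted p = 0.267), and -0.71 without parental replicate 2 (adjusted p = 0.00570). Without that library 31.8% of all tested genes were called, against 15.9% with it. SLC25A25 lay higher in ARID1Ako cells, at 8.45, 9.75 and 8.45 FPKM, than in parental cells, at 7.11, 7.50 and 7.55 FPKM (limma adjusted p = 0.139). Shares within a library do not depend on its scaling. SLC25A25 made up 21.9%, 26.6% and 22.9% of the summed FPKM of SLC25A23, SLC25A24, SLC25A25 and SLC25A41 in ARID1Ako libraries, against 14.4%, 20.5% and 17.2% in parental libraries. Its lowest ARID1Ako share was above its highest parental one (exact two-sided permutation p = 0.10, the smallest that 3 against 3 allows, and 0.350 after adjustment over 7 shares).

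The carriers of carboxylates, aspartate and glutamate had 7 of 8 members tested, and none passed in either direction in limma, where p without adjustment was under 0.05 for 0 higher and 1 lower. SLC25A1 had a log2 fold change of -0.20 (95% confidence interval from -0.67 to 0.28), and without parental replicate 2 it was -0.00. SLC25A10 stood at -0.07 (from -0.57 to 0.43) and SLC25A11, the oxoglutarate-malate carrier of the malate-aspartate shuttle, at 0.17 (from -0.19 to 0.53). The aspartate-glutamate carriers of that shuttle were level, with SLC25A12 at 10.8 ± 0.633 FPKM in ARID1Ako cells and 10.7 ± 0.177 FPKM in parental cells (SD, n = 3 each). SLC25A13, also known as citrin, had 20.6, 17.8 and 18.5 FPKM in ARID1Ako cells and 20.9, 16.6 and 20.7 FPKM in parental cells. The 95% confidence intervals were from -0.17 to 0.21 for SLC25A12 and from -0.30 to 0.24 for SLC25A13. SLC25A13 made up 62.6% to 64.3% of the summed FPKM of the pair in ARID1Ako libraries and 61.4% to 66.0% in parental libraries.

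SLC25A21, the carrier of oxoadipate and oxoglutarate, had 0.887, 0.352 and 0.686 FPKM in ARID1Ako cells and 1.21, 1.11 and 1.03 FPKM in parental cells. Its groups did not overlap, its log2 fold change was -0.38 (limma adjusted p = 0.113), and its neighbours on chromosome 14 had a median of -0.22. SLC25A22, a glutamate carrier, overlapped between the groups, at 17.9 ± 2.51 FPKM in ARID1Ako cells and 18.9 ± 2.71 FPKM in parental cells (SD, n = 3 each). Its close relative SLC25A18 was too low for the test, at 0.354, 0.381 and 0.392 FPKM in ARID1Ako libraries and 0.0348, 0.0887 and 0.102 FPKM in parental libraries. The groups were apart and the ratio of means was 5.00. With no filter on low values SLC25A18 passed (log2 fold change 0.36, limma adjusted p = 0.00237), among 2309 called genes or 12.9% of 17832.

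For carriers of amino acids and S-adenosylmethionine the groups were apart in 4 of 5 tested members, all higher in ARID1Ako cells, as for 16.7% of all tested genes. Of these, SLC25A15 passed the test, and 3 were higher at an unadjusted p under 0.05. The median log2 fold change of the 5 was 0.30. SLC25A38, which brings glycine into the matrix for heme synthesis, averaged 25.8 ± 1.93 FPKM in ARID1Ako cells and 20.2 ± 2.33 FPKM in parental cells (SD, n = 3 each), with no overlap (log2 fold change 0.34, limma adjusted p = 0.0771). It passed without parental replicate 2 (adjusted p = 0.00862), where 31.8% of all genes were called, and with quantile normalization (adjusted p = 0.0322). SLC25A29, a carrier of basic amino acids, had 13.1, 15.8 and 13.4 FPKM in ARID1Ako cells and 11.3, 12.7 and 9.94 FPKM in parental cells (adjusted p = 0.144 in limma). Its limma adjusted p was 0.0302 without parental replicate 2 and 0.105 with quantile normalization. SLC25A44, a carrier of branched-chain amino acids, had 10.6, 10.4 and 11.0 FPKM in ARID1Ako cells and 9.45, 9.15 and 10.1 FPKM in parental cells, a log2 fold change of 0.14 (95% confidence interval from -0.05 to 0.33). SLC25A26, the S-adenosylmethionine carrier, overlapped, with a log2 fold change of 0.01. SLC25A2, a second ornithine carrier, had 0.127, 0.0740 and 0.0676 FPKM in ARID1Ako libraries and was listed at 0 in all 3 parental ones, too low for the test. With no filter on low values it passed (limma adjusted p = 0.0335), where 12.9% of genes were called. The gene TAF7 overlaps SLC25A2 in the GENCODE annotation, and these values are close to 0.

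Among carriers of pyrimidine nucleotides, coenzymes and vitamins, SLC25A32 was the only call in limma among 7 tested members. SLC25A42, a coenzyme A carrier, had 3.58, 4.54 and 3.98 FPKM in ARID1Ako cells and 4.94, 5.25 and 5.67 FPKM in parental cells, with no overlap (log2 fold change -0.32, limma adjusted p = 0.0941). It passed with the transcript length slope as a covariate (limma adjusted p = 0.0373), where 32.3% of all genes were called. It did not pass with quantile normalization (limma adjusted p = 0.171) or without parental replicate 2 (adjusted p = 0.0690). SLC25A17, a carrier of coenzyme A and nucleotides in the peroxisome membrane, had 21.2 ± 1.97 FPKM in ARID1Ako cells and 24.9 ± 2.31 FPKM in parental cells (SD, n = 3 each). Its log2 fold change was -0.22 (95% confidence interval from -0.47 to 0.03). SLC25A16 stood at a log2 fold change of 0.03 (95% confidence interval from -0.19 to 0.24). The pyrimidine nucleotide carriers SLC25A33 and SLC25A36 had log2 fold changes of -0.01 and -0.15 with overlapping groups.

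The iron and glutathione carriers had 4 tested members, all with overlapping groups, and none passed limma (0 at an unadjusted p under 0.05). SLC25A37 and SLC25A28, the mitoferrins that bring iron into the matrix, averaged 22.7 ± 1.57 and 29.5 ± 2.19 FPKM in ARID1Ako cells, against 21.1 ± 2.73 and 27.3 ± 5.64 FPKM in parental cells (SD, n = 3 each). The log2 fold changes of SLC25A37, SLC25A28, SLC25A39 and SLC25A40 lay between -0.11 and 0.12. SLC25A39 made up 97.9% to 98.9% of the summed FPKM of SLC25A39 and SLC25A40 in ARID1Ako libraries and 97.9% to 99.0% in parental libraries.

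Of the carriers related to uncoupling proteins, SLC25A14 and SLC25A30 lay higher in ARID1Ako cells without passing. SLC25A14 had 8.28, 9.22 and 8.07 FPKM in ARID1Ako cells and 5.87, 7.31 and 5.84 FPKM in parental cells (log2 fold change 0.38, limma adjusted p = 0.0645). It passed without parental replicate 2 (limma adjusted p = 0.00825), where 31.8% of all genes were called, but not with quantile normalization (adjusted p = 0.0775). SLC25A30 had 2.99, 2.13 and 2.80 FPKM in ARID1Ako cells and 1.81, 1.33 and 1.96 FPKM in parental cells (log2 fold change 0.43, limma adjusted p = 0.0908). Like SLC25A15 it lies on chromosome 13, with neighbours at a median of 0.21. It passed with quantile normalization (limma adjusted p = 0.0441) but not without parental replicate 2 (adjusted p = 0.0917). SLC25A27, known as UCP4 and best described in brain, overlapped at 1.70 ± 0.285 FPKM in ARID1Ako cells and 1.81 ± 0.0783 FPKM in parental cells (SD, n = 3 each).

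Of the outer membrane and orphan members, 5 of 7 were tested and SLC25A34 was the only call in limma. SLC25A46, an outer membrane protein tied to mitochondrial shape, had 12.0, 8.76 and 10.2 FPKM in ARID1Ako cells and 15.9, 9.92 and 14.1 FPKM in parental cells, overlapping through parental replicate 2. Its log2 fold change was -0.33 (limma adjusted p = 0.299), and -0.51 without parental replicate 2 (adjusted p = 0.0182), where 31.8% of all genes were called. SLC25A45 had 1.45, 2.04 and 1.82 FPKM in ARID1Ako cells and 0.969, 1.32 and 0.948 FPKM in parental cells, with no overlap (limma adjusted p = 0.0654). Its limma adjusted p was 0.0168 without parental replicate 2, with the same share of all genes called, and 0.121 with quantile normalization. SLC25A35, a relative of SLC25A34, had 1.88, 2.04 and 2.44 FPKM in ARID1Ako cells and 1.54, 1.78 and 1.46 FPKM in parental cells (log2 fold change 0.27, limma adjusted p = 0.155). SLC25A43 stood at 0.00 (95% confidence interval from -0.33 to 0.33). SLC25A48 had 0.180 to 0.330 FPKM in ARID1Ako cells and 0.322 to 0.336 FPKM in parental cells, below the minimum for testing. SLC25A47, a liver carrier, was listed at 0 in every library except parental replicate 3, where it had 0.0419 FPKM.

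The spread within a group limited these comparisons. Over the 39 tested members the median SD of log2(FPKM + 1) was 0.10 among ARID1Ako libraries and 0.17 among parental libraries. Parental replicate 2 was the highest parental library for 22 members and the lowest for 13. It was thus an extreme of its group for 89.7% of members and for 88.8% of all tested genes. ARID1Ako replicates 1 and 2 were an extreme of theirs for 84.6% and 87.2% of members, against 81.2% and 73.1% of all tested genes.

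Related genes outside the SLC25A symbols were read from the same fit. Carrier family members that go by other symbols had 8 rows, of which 5 were tested, and all 5 had a log2 fold change above 0, with 1 call. Of all 12826 tested genes, 6130 had a log2 fold change above 0 and 7.82% were called higher. MTCH1, an outer membrane relative of the carriers, had 143, 158 and 158 FPKM in ARID1Ako cells and 98.6, 123 and 104 FPKM in parental cells (log2 fold change 0.50, limma adjusted p = 0.0407). The call of MTCH1 ended on leaving out any single library other than parental replicate 2 (adjusted p from 0.0849 to 0.174). MCART1, the earlier symbol of the NAD carrier SLC25A51, had 4.30, 4.30 and 3.66 FPKM in ARID1Ako cells and 3.56, 2.71 and 2.88 FPKM in parental cells (limma adjusted p = 0.112). The uncoupling protein gene UCP2 overlapped, at 4.37 ± 1.29 FPKM in ARID1Ako cells and 3.47 ± 0.573 FPKM in parental cells (SD, n = 3 each). Of the genes that import carriers into the inner membrane 13 were tested and none passed limma (0 at an unadjusted p under 0.05).

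Over all the lists of related genes 103 were tested, and 3 rose and 9 fell, against 7.82% higher and 8.11% lower among all tested genes. Enzymes on either side of the carriers had calls in both directions. Of 11 tested genes of the carnitine shuttle and fatty acid oxidation, the pathway that SLC25A20 supplies, 0 rose and 3 fell. HADHA and HADHB, the subunits of the trifunctional protein of beta-oxidation, measured 82.8 ± 2.42 and 60.0 ± 2.16 FPKM in ARID1Ako cells, against 123 ± 11.7 and 82.3 ± 1.26 FPKM in parental cells (SD, n = 3 each), with limma adjusted p = 0.0168 and 0.0155. They are neighbours in a stretch whose tested genes had a median log2 fold change of -0.31. ETFDH, which passes electrons from beta-oxidation to ubiquinone, measured 10.1 ± 0.501 FPKM in ARID1Ako cells and 16.2 ± 0.912 FPKM in parental cells (limma adjusted p = 0.00331). CPT1A and CPT2, the acyltransferases on either side of SLC25A20, did not pass, with log2 fold changes of -0.29 and 0.08. The calls of HADHA and HADHB ended without any one ARID1Ako library or parental replicate 3 (highest adjusted p = 0.0886 and 0.0959).

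Of 7 tested enzymes of one-carbon metabolism, which uses the folate that SLC25A32 carries, 0 rose and 2 fell. SHMT1, the cytosolic serine hydroxymethyltransferase, measured 24.9 ± 0.603 FPKM in ARID1Ako cells and 41.1 ± 3.22 FPKM in parental cells, and MTHFD2, the mitochondrial methylene-folate dehydrogenase, 155 ± 7.88 FPKM in ARID1Ako cells and 255 ± 13.4 FPKM in parental cells (SD, n = 3 each). The limma adjusted p was 0.00269 for SHMT1 and 0.00857 for MTHFD2, and their neighbours had medians of -0.33 and -0.31. The MTHFD2 call ended without ARID1Ako replicate 2 or 3 or parental replicate 3 (highest adjusted p = 0.0623). SHMT2, the mitochondrial counterpart of SHMT1, overlapped between the groups, with a log2 fold change of -0.12.

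Of 10 tested genes that form or use citrate, 2 rose and 2 fell. ACO1, the cytosolic aconitase, had a log2 fold change of 0.52 (limma adjusted p = 0.00954, with neighbours at a median of 0.38) and IDH2, the mitochondrial isocitrate dehydrogenase, 0.45 (adjusted p = 0.0424). IDH1, its cytosolic counterpart, had -0.53 (limma adjusted p = 0.0348) and ME1, cytosolic malic enzyme, -0.61 (adjusted p = 0.00688). The calls of IDH1 and IDH2 ended without every single library except parental replicate 2 (highest adjusted p = 0.145 and 0.166), the IDH1 call also with quantile normalization (adjusted p = 0.0789), the IDH2 call also with no filter on low values or without trend and robust moderation (adjusted p = 0.0540 and 0.0542), and that of ACO1 without ARID1Ako replicate 3 or parental replicate 3 (highest adjusted p = 0.0568). Among 11 tested genes of glutamine and proline metabolism 0 rose and 1 fell, GLUD1, the glutamate dehydrogenase, at -0.42 (limma adjusted p = 0.0110, and up to 0.0695 without ARID1Ako replicate 2 or 3 or parental replicate 3). Other mitochondrial membrane transporters had 16 tested genes with 0 higher and 1 lower, SFXN5, a sideroflexin, at -0.43 with neighbours at a median of -0.30 (limma adjusted p = 0.0229, and up to 0.0964 without any one ARID1Ako library or parental replicate 3). None passed limma among 6 shuttle enzymes, 14 genes of heme and iron-sulfur synthesis and 10 regulators of mitochondrial biogenesis, where p without adjustment was under 0.05 for 0, 2 and 1 higher and 1, 2 and 1 lower genes.

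**Figure D4:**
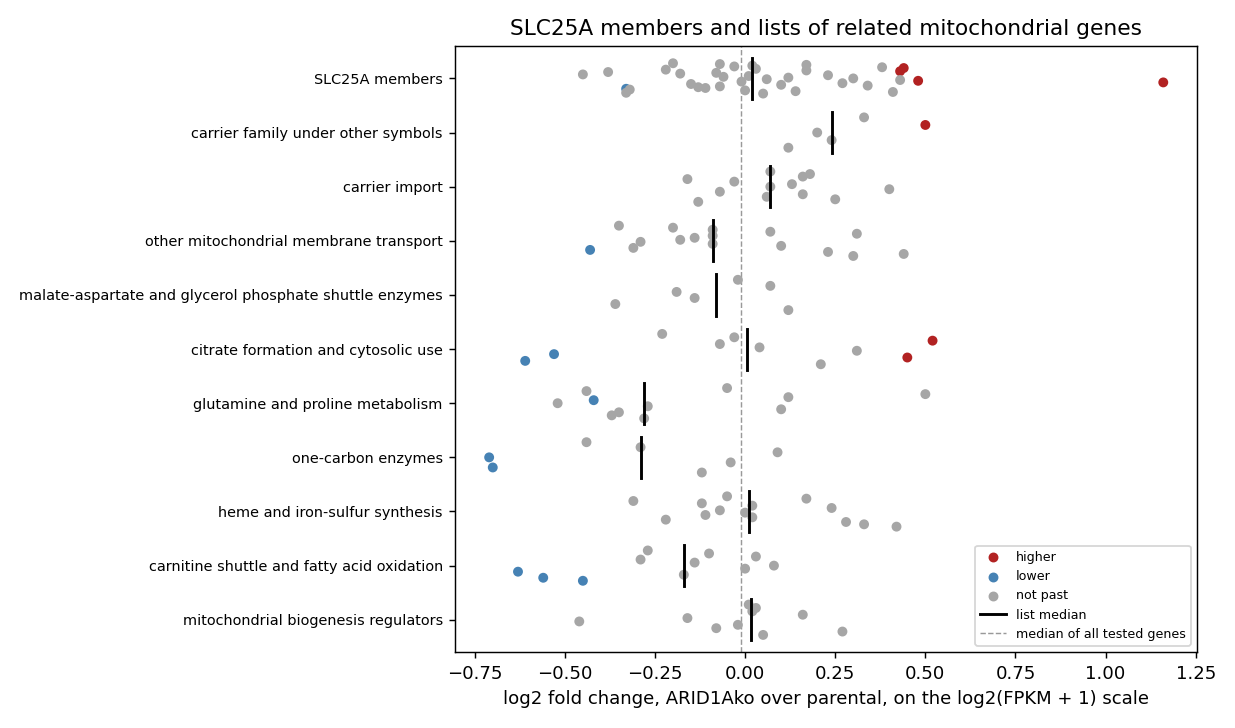
Log2 fold changes, ARID1Ako over parental, of the tested SLC25A members (top row) and of the lists of related mitochondrial genes, 1 point per gene, with the list median as a black bar and the median of all tested genes as a dashed line. The SLC25A median is 0.02, the fatty acid oxidation median -0.17 and the one-carbon median -0.29, and called genes are coloured.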

How the data were processed

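The authors deposited FPKM values by gene symbol, in a table for each library. The submitters' processing notes name Cuffdiff 2.2.1.5, Cuffnorm 2.2.1.2 and the aligner TopHat2 2.1.1, and the build GRCh37. Neither the annotation nor the scaling between libraries is stated there. Of 23273 rows, 28 with a symbol turned into a date were left out.

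Levels were compared with limma 3.58.1 (R 4.3.3), with a mean-variance trend and robust moderation, on log2(FPKM + 1), which understates changes of low genes, with group as the only term. Of 17832 rows above 0 in a library, 12826 that averaged 0.5 FPKM or more entered the test, and p-values are two-sided with a threshold of 0.05 after adjustment over all of them. The procedure was tested on simulated data. A member at 0 in some library has no fold. Total fragments are unknown, so precision rests on the spread between 3 libraries. Neighbours are the 20 tested genes on each side in the RefSeq order of GRCh38.p14, which placed 96.8% of tested genes.

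The members and lists were chosen with earlier results of these data known. Roles came from general knowledge, and SLC25A43, SLC25A45 and SLC25A48 were moved to the orphan group after their values were seen. The values of 1 member are not reported here, and it is counted in the totals. Members past the threshold and the 5 highest are given per library, and related genes are named when past the threshold, with MCART1, UCP2, CPT1A, CPT2 and SHMT2 named after their values were seen.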

Additional observations from a re-analysis of the deposited data

How the results depend on the processing

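The SLC25A34 call held under each alternative that tested it. Its mean is below the stricter minimum of 3 FPKM, where it was not tested. With that minimum 667 genes were higher and 0 members lower, but SLC25A41, the 1 lower call, was not tested there either. With a pseudocount of 0.1, where SLC25A41 was tested, 0 members were lower. Quantile normalization gave 8 higher and 14 lower related genes, against 3 and 9 as reported. Over all tested genes it gave 1248 higher and 1249 lower, against 1003 and 1040 in the main fit. Among members it gave 6 higher and 1 lower, against 4 and 1. With the transcript length slope as a covariate (lengths for 96.6% of tested genes) 32.3% of genes were called, of which 1852 genes were higher and 2297 lower, with 8 members higher and 3 lower (SLC25A14, SLC25A30, SLC25A38, SLC25A45, SLC25A4 and SLC25A42 added) and 12 related genes higher and 22 lower. Leaving out 1 library in turn gave 531 to 1982 genes higher and 433 to 2097 lower, 1 to 8 members higher and 0 to 3 lower, and 0 to 15 related genes higher and 3 to 19 lower. The highest count came without parental replicate 2 each time.

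Whether the replicate numbers of the titles pair the libraries was not settled, and the main fit did not pair them. Deviations from the group means correlated across genes at 0.219, 0.217 and -0.0131 for replicates 1, 2 and 3. For libraries with unlike replicate numbers these correlations ran from -0.267 to 0.0825. With the replicate block 31.6% of genes were called, of which 1861 genes were higher and 2188 lower, with 9 members higher and 5 lower (SLC25A14, SLC25A29, SLC25A30, SLC25A38, SLC25A45, SLC25A21, SLC25A24, SLC25A42 and SLC25A46 added) and 13 related genes higher and 25 lower.

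Changes of sign were found for members near 0 that did not pass. With the length covariate SLC25A3 and SLC25A5 each stood at -0.02, SLC25A13 at 0.04 and SLC25A26 at -0.09, and with quantile normalization SLC25A33 stood at 0.00. Leaving out 1 library gave log2 fold changes of -0.04 to 0.17 for SLC25A3, -0.23 to 0.00 for SLC25A4, -0.04 to 0.15 for SLC25A5, -0.19 to 0.13 for SLC25A10, -0.02 to 0.05 for SLC25A12, -0.13 to 0.03 for SLC25A13, -0.02 to 0.05 for SLC25A16, -0.15 to 0.04 for SLC25A22, -0.08 to 0.16 for SLC25A26, -0.12 to 0.03 for SLC25A27, -0.14 to 0.09 for SLC25A33, -0.19 to 0.12 for SLC25A39 and -0.14 to 0.09 for SLC25A43. The difference in share, ARID1Ako minus parental in points, ranged from -2.26 to 0.0383 for SLC25A13 beside SLC25A12, -0.966 to 1.36 for SLC25A28 beside SLC25A37, -4.03 to 1.48 for SLC25A36 beside SLC25A33 and -0.170 to 0.385 for SLC25A39 beside SLC25A40. The cause of these changes was not tested.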
